A study of Mus musculus with 5 samples.

Results

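Fatty acid oxidation and its acyl-CoA chemistry were followed through 35 genes, chosen by symbol from the 54699 genes of the deposited expression table. All 35 were found once under their symbol. The data are 5 RNA-seq libraries of B16F10, a mouse melanoma cell line that makes pigment. Cells were infected with lentivirus, which carried mouse Myod1, a transcription factor of skeletal muscle, mouse Pparg, a nuclear receptor of fat cells, or an empty expression vector, and these were collected on day 8. A short hairpin RNA against Setdb1, a histone H3 lysine methyltransferase, or an empty knockdown vector was delivered the same way, and these cells were collected on day 7. There was 1 library per group, so no difference has a replicate check and no test was possible. The Myod1 and Pparg libraries share a single control. The knockdown control is named by its empty vector, with no non-targeting hairpin named, and the labels do not say how the transgenes are driven or whether infected cells were selected. The cultures grew in DMEM with serum.

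Long-chain fatty acids are activated to acyl-CoA by synthetases at the outer mitochondrial membrane and the endoplasmic reticulum. They enter mitochondria by the carnitine shuttle, which hands the acyl group from CoA to carnitine and back. Inside, each round of beta-oxidation runs through an acyl-CoA dehydrogenase, a hydratase, a hydroxyacyl-CoA dehydrogenase and a thiolase, and electron transfer flavoprotein passes the electrons of the dehydrogenase step to the respiratory chain. Auxiliary enzymes deal with double bonds, peroxisomes shorten very long chains, and thioesterases release the acid from CoA again. In muscle, fat and liver many of these genes are well-known targets of the PPAR receptors, which bind as heterodimers with RXR to DR1 elements, direct repeats of AGGTCA spaced by a single base. Myod1 binds E-boxes, for which CAGCTG is a preferred form.

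The libraries held between 16214802 and 18300670 reads assigned to genes, recovered from the deposited values. Levels are FPKM, reads per kilobase of gene length corrected for library depth, with the authors' scaling between libraries. Myod1 stood at 260 FPKM and Pparg at 44.4 FPKM in the libraries named for them, and neither had a read in the other 4. Setdb1 was at 0.867 FPKM in the knockdown library and at 9.82 FPKM in its control. The 9 melanocyte markers all had more than 3 reads in every library, and their summed FPKM was 3321 with Myod1 and 2318 with Pparg, against 7840 to 9115 in the other 3. Tyrp1 and Pmel carry much of that sum, and with Setdb1 knockdown Mitf and Slc45a2 fell at least 2-fold against both controls (log2 ratios of -1.54 and -1.49 against its own). The 8 skeletal muscle markers summed to 30619 FPKM in the Myod1 library and to 10.9 to 32.4 FPKM elsewhere. The 8 adipocyte markers summed to 320 FPKM in the Pparg library and to 0.726 to 2.72 FPKM elsewhere, with Lpl at 0 in every library. Fabp4 at 153 FPKM and Cd36 at 146 FPKM made up most of the 320, and Adipoq had 2 reads and Cidec 9 in that library. Of 6 brown adipocyte markers Ucp1 and Cidea were at 0 in all 5 libraries, and the list summed to between 9.98 and 38.0 FPKM. The 5 hepatocyte markers summed to at most 0.175 FPKM, the 5 fibroblast markers to at most 2.50 FPKM with Dcn and Lum at 0, and the 6 immune markers to at most 19.1 FPKM with Cd3e at 0. The part of these marker changes in the results below was not tested. In such bulk samples, a change in the share of cells of a kind and a change in RNA per cell cannot be told apart.

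Of the 35 genes, 32 reached 1 FPKM in at least 1 library and were compared. Cpt1b, Pdk4 and Ucp3 did not, and Ucp2 did so only in the Myod1 library. Each difference is the log2 ratio of FPKM + 1 in a library to that in its control, and a gene is called higher or lower at an absolute value of at least 1, which is 2-fold on that scale. The 95% intervals beside some levels are Wilson intervals for the fraction of a library's reads that fall on the gene, and cover counting error only.

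Both transcription factors came with higher oxidation genes, and with Setdb1 knockdown the calls did not exceed the share of all genes by much in either direction. In the Myod1 library 11 of the 32 genes rose at least 2-fold and 0 fell, where 14.0% of all 12842 genes compared were called higher and 7.55% lower. Without the genes that passed the filter only through this library, Ucp2 among them, the count was 10 of 31, against 10.2% of all genes. The Pparg library had 11 of 32 higher and 1 lower, against 4.22% and 2.30% of all genes. With Setdb1 knockdown 3 were higher and 2 lower (9.38% and 6.25% of the 32), near the 9.34% and below the 10.3% of all genes. The controls did not differ 2-fold at any of the 32, and between them 1.23% of all genes were higher and 1.44% lower in the knockdown control. The median log2 ratio of the 32 genes was 0.58 with Myod1, 0.76 with Pparg and 0.42 with Setdb1 knockdown, and the medians of all genes compared were 0.02, -0.02 and 0.00. Below the limit as well, most lay above their control: 28 of 32 in the Myod1 library, 29 in the Pparg library and 23 in the Setdb1 library, beside 51.0%, 45.8% and 50.3% of all genes. Between the controls, 8 lay above and 24 below in the knockdown control (median -0.14, with 46.7% of all genes above). That tally is as one-sided as that of the Setdb1 library, at a smaller median. The controls carry no transgene or hairpin, but differ in vector and in day of collection. The part of vector, day and knockdown in these tallies was not tested.

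A stricter count asks for 2-fold against both control libraries. It kept 10 genes higher and 0 lower with Myod1 (11.9% and 4.42% of all genes), and 8 and 0 with Pparg (3.34% and 0.849%). Without Ucp2, which passed the filter only through the Myod1 library, the Myod1 count was 9 of 31, beside 991 of 12133 genes filtered the same way. With Setdb1 knockdown 1 was higher and 2 were lower, against 5.80% and 7.56% of all genes. The controls set the scale for single genes: the median absolute log2 difference between them was 0.17 over the 32 genes, and only Cpt1a, Acadl and Acot2 differed by more than 0.5. The largest gap was that of Acot2, 14.8 FPKM in the expression control and 7.54 FPKM in the knockdown control.

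The Myod1 counts depend on how libraries are scaled. The deposited FPKM of that library sum to 420545, those of the others to between 297582 and 326960. Divided by the column sums, 4 of the 11 genes (Crat, Acadvl, Hadhb and Ucp2) stayed at least 2-fold higher, Acsl5 and Ehhadh passed the limit downwards, and the median of all genes moved to -0.26 while that of the oxidation genes was 0.21. Over all genes 9.64% were then higher and 14.8% lower, so the 4 of 32 oxidation genes called higher are near the share of all genes. The higher calls made up 39.4% of all calls, in place of 65.0%.

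Together the 35 genes summed to 1168 FPKM in the Myod1 library and 1089 FPKM in the Pparg library, against 620 FPKM in the expression control. Setdb1 knockdown gave 706 FPKM and its control 545 FPKM. As a share of library reads, which scales by the library total in place of the authors' divisor, they took 0.334% with Myod1, 0.402% with Pparg and 0.210% in their control, and 0.250% with Setdb1 knockdown against 0.199%.

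**Figure D1:**
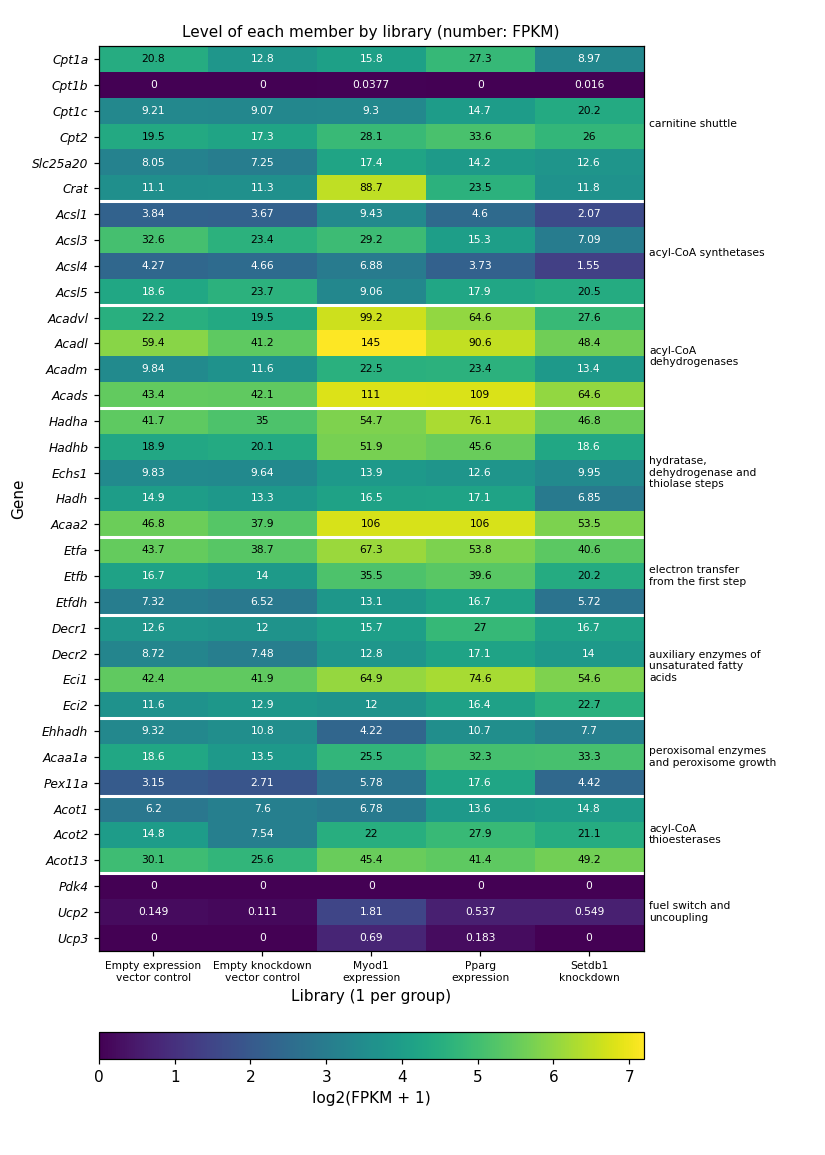
Level of each of the 35 genes (rows, grouped by role) in each of the 5 libraries (columns); the printed number is FPKM and the colour is log2(FPKM + 1). Acadl, Acads and Acaa2 are brightest in the Myod1 and Pparg columns, with Acadl highest at 145 FPKM in the Myod1 library, and Cpt1b, Pdk4 and Ucp3 are dark in all 5.

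**Figure D2:**
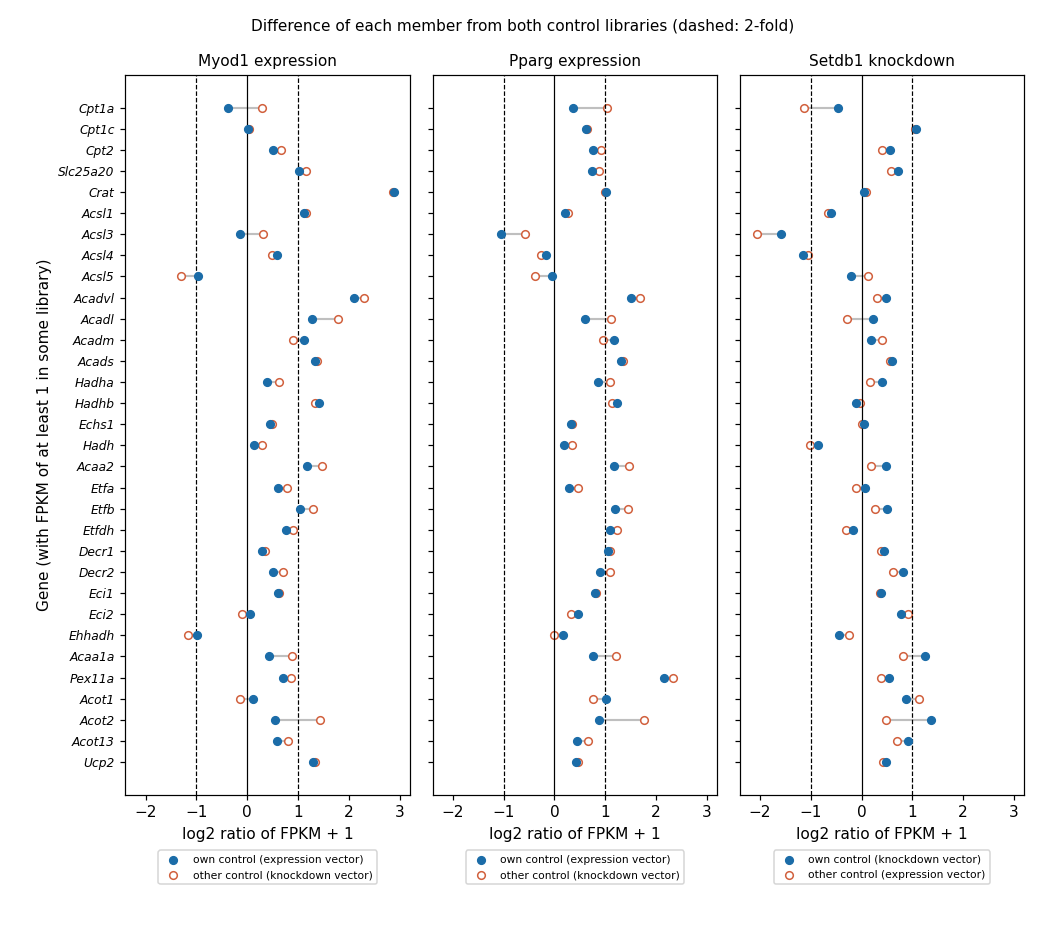
Log2 ratio of FPKM + 1 for each of the 32 genes compared, in 3 panels for the 3 treated libraries; filled points are against the library's own control, open points against the other control, and dashed lines mark 2-fold. Most points lie right of 0 in the Myod1 and Pparg panels, and Acot2 has the widest gap between its points.

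The acyl-CoA dehydrogenases take the first electrons from the acyl chain. All 4 were at least 2-fold higher with Myod1 and 3 of 4 with Pparg, while 0 of 4 passed the limit with Setdb1 knockdown. With division by the column sums only Acadvl of the 4 kept its Myod1 call. Acadvl, the very long-chain enzyme (chromosome 11, 70010183 to 70015411, minus strand, GRCm38), was at 99.2 FPKM with Myod1, 64.6 FPKM with Pparg, 22.2 FPKM in the expression control, 27.6 FPKM with Setdb1 knockdown and 19.5 FPKM in the knockdown control. That is a 4.46-fold rise with Myod1 (log2 ratio 2.11) and a 2.91-fold rise with Pparg, with intervals of 96.2 to 102 and 62.5 to 66.9 FPKM clear of the control's 20.9 to 23.7. Acadl, the long-chain enzyme, read 145, 90.6, 59.4, 48.4 and 41.2 FPKM in the same order. It rose 2.44-fold with Myod1, and its ratio for Pparg was 0.60 against its own control and 1.12 against the other.

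Acadm, the medium-chain enzyme, had 22.5 FPKM with Myod1 and 23.4 FPKM with Pparg against 9.84 FPKM, and 13.4 FPKM with Setdb1 knockdown against 11.6 FPKM. Both rises passed the limit against the expression control, at log2 ratios of 1.11 and 1.17, and neither did against the knockdown control, at 0.90 and 0.95. Acads, the short-chain enzyme, stood at 111 and 109 FPKM with Myod1 and Pparg, against 43.4 FPKM, and at 64.6 FPKM with Setdb1 knockdown against 42.1 FPKM. Its rises were 2.56-fold and 2.50-fold, and the Setdb1 ratio of 0.61 stayed under the limit. In both libraries all 4 dehydrogenases lay above both controls.

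Electron transfer flavoprotein, the acceptor of these electrons, has the subunits Etfa and Etfb, and Etfdh passes the electrons on to ubiquinone. Etfb was at 35.5 FPKM with Myod1, 39.6 FPKM with Pparg, 16.7 FPKM in the expression control, 20.2 FPKM with Setdb1 knockdown and 14.0 FPKM in the knockdown control, which is 2.12-fold and 2.37-fold higher for the transcription factors. Etfdh rose 2.28-fold with Pparg, from 7.32 to 16.7 FPKM, and had 13.1 FPKM with Myod1, a log2 ratio of 0.76. With Setdb1 knockdown it read 5.72 FPKM against 6.52 FPKM. Etfa, the most abundant of the 3 per length, stayed under the limit throughout, at 67.3, 53.8, 43.7, 40.6 and 38.7 FPKM. In the annotation 67.3% of the 50-base windows of Etfb are also in Gm45233, a readthrough model with at most 2 reads in any library, so the level of Etfb depends on how shared reads were counted.

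Later steps of the mitochondrial cycle rose in part. Acaa2, the last thiolase, was at 106 FPKM in both the Myod1 and the Pparg library and at 46.8 FPKM in their control, 2.27-fold higher in each. It was at 53.5 FPKM with Setdb1 knockdown and 37.9 FPKM in the knockdown control, a ratio of 0.49. Hadha and Hadhb encode the subunits of the mitochondrial trifunctional protein, which joins hydratase, dehydrogenase and thiolase. They are neighbours on chromosome 5 read in opposite directions, with RefSeq start sites 272 bases apart. Hadhb was at 51.9 FPKM with Myod1, 45.6 FPKM with Pparg, 18.9 FPKM in the expression control, 18.6 FPKM with Setdb1 knockdown and 20.1 FPKM in the knockdown control. It rose 2.74-fold with Myod1 and 2.41-fold with Pparg. Hadha read 54.7, 76.1, 41.7, 46.8 and 35 FPKM, with ratios of 0.38, 0.85 and 0.41 in the 3 comparisons, all under the limit. Against the other control its ratio with Pparg was 1.10, past the limit.

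The level of Hadha over that of Hadhb was accordingly 1.06 with Myod1 and 1.67 with Pparg, against 2.20 in the expression control, and 2.51 with Setdb1 knockdown against 1.74. The controls alone thus span 1.74 to 2.20. A processed pseudogene of Hadhb, Gm13910 (chromosome 2, 108948806 to 108950233), shares 61.5% of the 50-base windows of Hadhb and was listed at 76.0, 65.6, 27.7, 26.3 and 30.6 FPKM. Its level kept between 1.41 and 1.52 times that of Hadhb in all 5 libraries. Reads from Hadhb and Gm13910 may have been divided between them, so the level of Hadhb is uncertain and with it the ratio to Hadha.

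Echs1, the short-chain enoyl-CoA hydratase, had 13.9, 12.6, 9.83, 9.95 and 9.64 FPKM and passed no limit. Hadh, the hydroxyacyl-CoA dehydrogenase of medium and short chains, was at 16.5 FPKM with Myod1, 17.1 FPKM with Pparg and 14.9 FPKM in the expression control. It was at 6.85 FPKM with Setdb1 knockdown and 13.3 FPKM in the knockdown control, a log2 ratio of -0.87 against its own control and -1.02 against the other. Of the 5 genes of these steps, 2 were called higher with each transcription factor and 0 with Setdb1 knockdown.

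The carnitine shuttle held the gene with the largest difference of all 32 on the FPKM + 1 scale. By plain FPKM the fold of Ucp2 with Myod1 was larger, at 12.2. Crat, carnitine acetyltransferase, moves short acyl groups between CoA and carnitine (chromosome 2, 30400471 to 30415813, minus strand). It was at 88.7 FPKM in the Myod1 library (interval 86.7 to 90.7, from 7516 reads), 23.5 FPKM with Pparg, 11.1 FPKM in the expression control, 11.8 FPKM with Setdb1 knockdown and 11.3 FPKM in the knockdown control. The 3 libraries without a transcription factor lie within 1 FPKM of each other, and Myod1 stands 8.01-fold above its control (log2 ratio 2.89). Pparg was 2.12-fold higher, a ratio of 1.02 that falls to 0.997 against the other control.

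Slc25a20, the carrier that takes acylcarnitines through the inner membrane, rose 2.16-fold with Myod1, from 8.05 to 17.4 FPKM. It had 14.2 FPKM with Pparg and 12.6 FPKM with Setdb1 knockdown against 7.25 FPKM, ratios of 0.75 and 0.72. Cpt2, which returns the acyl group to CoA on the matrix side, read 28.1, 33.6, 19.5, 26.0 and 17.3 FPKM and passed no limit, though all 3 treated libraries lay above both controls.

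The entry step itself, carnitine palmitoyltransferase 1, has 3 isozyme genes, and the balance of Cpt1a and Cpt1c differed between libraries. Cpt1a, the liver form and the widely expressed one, was at 15.8 FPKM with Myod1, 27.3 FPKM with Pparg, 20.8 FPKM in the expression control, 8.97 FPKM with Setdb1 knockdown and 12.8 FPKM in the knockdown control. None of its ratios to its own control passed the limit (-0.38, 0.37 and -0.47). Against the other control they were 0.29, 1.04 and -1.13, past the limit with Pparg and Setdb1 knockdown, and the controls differed by a ratio of -0.67. Cpt1c, a form of the endoplasmic reticulum best known from neurons (chromosome 7, 44959372 to 44974851, minus strand), read 9.30, 14.7, 9.21, 20.2 and 9.07 FPKM. It rose 2.23-fold with Setdb1 knockdown (1.08, and 1.06 against the other control), while the Myod1 library and both controls lay between 9.07 and 9.30 FPKM. Of the summed isozyme level, Cpt1a made up 58.5% to 69.4% in the other 4 libraries and 30.7% with Setdb1 knockdown, where Cpt1c made up 69.2%.

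Cpt1b, the muscle isozyme, had 2 reads in the Myod1 library, 1 with Setdb1 knockdown and 0 in the other 3. In the annotation 93.0% of its 50-base windows are also in Gm44502, a readthrough gene of Chkb and Cpt1b (chromosome 15, 89416405 to 89429696), which was listed at 0 in all 5 libraries. Chkb, its other partner, had 0 to 19 reads. Reads that fall on both models would be lost if shared reads were left out, so these values do not show whether Cpt1b was expressed.

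Of the 4 acyl-CoA synthetases, 2 were lower after Setdb1 knockdown and 0 higher. Acsl3, found on the endoplasmic reticulum and lipid droplets (chromosome 1, 78657825 to 78707743), was at 29.2 FPKM with Myod1, 15.3 FPKM with Pparg, 32.6 FPKM in the expression control, 7.09 FPKM with Setdb1 knockdown and 23.4 FPKM in the knockdown control. It fell 3.30-fold with Setdb1 knockdown (log2 ratio -1.59, and -2.05 against the other control). With Pparg it was 2.13-fold lower at a ratio of -1.04, which is -0.58 against the other control. Acsl4, which prefers arachidonic acid (chromosome X, 142317993 to 142390535), read 6.88, 3.73, 4.27, 1.55 and 4.66 FPKM and fell 3.01-fold with Setdb1 knockdown (-1.15, and -1.05 against the other control).

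Acsl1, the main form of fat, heart and muscle, was 2.46-fold higher with Myod1, at 9.43 FPKM against 3.84 FPKM. It was at 4.60 FPKM with Pparg, and at 2.07 FPKM with Setdb1 knockdown against 3.67 FPKM, a ratio of -0.61. Acsl5, on mitochondria and endoplasmic reticulum, had 9.06, 17.9, 18.6, 20.5 and 23.7 FPKM. Its value with Myod1 was 2.06-fold below the control as a plain ratio of FPKM, at -0.96 on the FPKM + 1 scale and thus just inside the limit. The most abundant synthetase per length was Acsl3 in the Myod1 library and the expression control (50.2% and 54.8% of the summed level of the 5 Acsl genes). It was Acsl5 with Pparg (43.0%) and Setdb1 knockdown (65.4%), and the knockdown control held them at 42.2% and 42.7%.

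**Figure D3:**
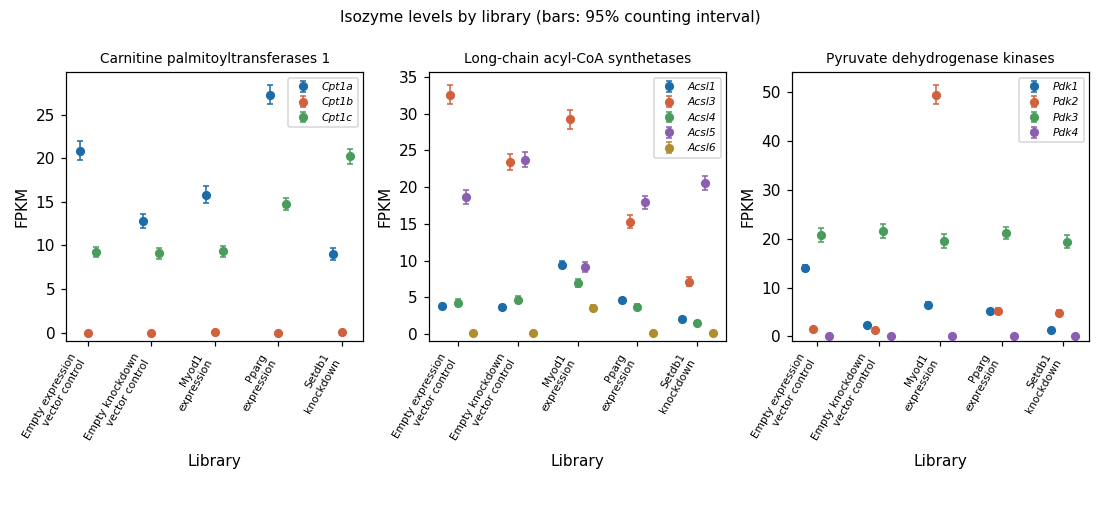
FPKM of the isozymes in 3 families (panels) across the 5 libraries (horizontal axis), with bars for the 95% counting interval. Cpt1c exceeds Cpt1a only in the Setdb1 library (20.2 against 8.97 FPKM), Acsl3 is lowest there, Pdk2 is high only in the Myod1 library (49.5 FPKM), and Pdk4 is at 0 throughout.

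Of the 4 enzymes for unsaturated chains, 1 was called higher with Pparg and 0 in the other comparisons, at median log2 ratios of 0.40 with Myod1, 0.85 with Pparg and 0.61 with Setdb1 knockdown. Decr1, the mitochondrial dienoyl-CoA reductase, was at 27.0 FPKM with Pparg and 12.6 FPKM in the control, 2.15-fold higher. It read 15.7 FPKM with Myod1, and 16.7 FPKM with Setdb1 knockdown against 12 FPKM. Decr2, its peroxisomal counterpart, had 12.8, 17.1, 8.72, 14.0 and 7.48 FPKM, and the isomerase Eci1 had 64.9, 74.6, 42.4, 54.6 and 41.9 FPKM. Eci2, another isomerase, had 12, 16.4, 11.6, 22.7 and 12.9 FPKM. None of these 3 passed the limit against its own control, and the nearest were Decr2 with Pparg (0.89) and Setdb1 knockdown (0.82). Against the other control Decr2 with Pparg was at 1.09. All 4 enzymes lay above both controls in the Pparg and the Setdb1 library.

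In the peroxisomal group 1 of 3 genes was called higher with Pparg, 1 with Setdb1 knockdown and 0 with Myod1. Pex11a, a membrane protein of peroxisome growth and division and a known PPAR target (chromosome 7, 79735957 to 79743131, minus strand), was at 5.78 FPKM with Myod1, 17.6 FPKM with Pparg (interval 16.6 to 18.7, 1073 reads), 3.15 FPKM in the expression control, 4.42 FPKM with Setdb1 knockdown and 2.71 FPKM in the knockdown control. Its 5.58-fold rise with Pparg was the largest ratio in that comparison (2.16). Acaa1a, the peroxisomal thiolase, was at 33.3 FPKM with Setdb1 knockdown and 13.5 FPKM in its control, 2.48-fold higher, and this ratio of 1.25 is 0.81 against the expression control at 18.6 FPKM. It had 25.5 FPKM with Myod1 and 32.3 FPKM with Pparg, the latter a ratio of 0.76, and 1.20 against the other control. Of its 50-base windows 34% are also in Acaa1b, which had at most 63 reads. Ehhadh, the bifunctional hydratase and dehydrogenase of peroxisomes, was at 4.22 FPKM with Myod1 against 9.32 FPKM, a ratio of -0.98, and read 10.7 FPKM with Pparg, 7.70 FPKM with Setdb1 knockdown and 10.8 FPKM in the knockdown control. It was the Myod1 library's lowest ratio, just inside the limit, and -1.17 against the other control.

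Acyl-CoA thioesterases were above both controls with Pparg and with Setdb1 knockdown in all 3 cases. Acot2, the mitochondrial form, read 22, 27.9, 14.8, 21.1 and 7.54 FPKM. It rose 2.79-fold with Setdb1 knockdown, and the ratio of 1.37 is 0.48 against the expression control. With Myod1 and Pparg its ratios were 0.54 and 0.87, and 1.43 and 1.76 against the other control. Acot1, the cytosolic form, had 6.78, 13.6, 6.20, 14.8 and 7.60 FPKM, 2.20-fold higher with Pparg (1.02, and 0.77 against the other control). Its ratio with Setdb1 knockdown was 0.88, and 1.13 against the other control. Acot13 had 45.4, 41.4, 30.1, 49.2 and 25.6 FPKM and passed no limit. Acot1 and Acot2 are closely related neighbours on chromosome 12 that share 33.0% and 27.7% of their 50-base windows with other genes, so their split is uncertain.

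The last 3 genes mark the switch to fat as fuel and the uncoupling of respiration, and none exceeded 2 FPKM. Pdk4, the pyruvate dehydrogenase kinase of fasting, had 0 reads in all 5 libraries, where 3 reads would have been between 0.0446 and 0.0543 FPKM. Ucp2, a mitochondrial carrier of the uncoupling protein family, was at 1.81 FPKM with Myod1 (199 reads), 0.537 FPKM with Pparg (72 reads), 0.149 FPKM in the expression control (17 reads), 0.549 FPKM with Setdb1 knockdown (71 reads) and 0.111 FPKM in the knockdown control (13 reads). As plain FPKM these are 12.2-fold, 3.61-fold and 4.93-fold above the controls. On the FPKM + 1 scale, which compresses low values, only Myod1 passed the limit, at 1.29. Ucp3, the family member of skeletal muscle and brown fat, had 34 reads with Myod1 (0.690 FPKM), 11 with Pparg (0.183 FPKM) and 0 in the other 3. Against a floor of 3 reads in the control, this is at least 11.8-fold higher with Myod1 and at least 3.12-fold higher with Pparg.

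Ucp3 and Ucp2 lie in tandem on chromosome 7, their RefSeq start sites 20366 bases apart, and both were highest in the Myod1 library. The 250 bases before each start are shown because both neighbours hold an E-box there and Ucp3 a DR1-like repeat as well (RefSeq, GRCm38.p6, plus strand). Capitals mark matches of the DR1-like repeat and the E-box, including mismatched bases within them, and a single AGGTCA is left in lower case.
Ucp3, chr7:100472741-100472990: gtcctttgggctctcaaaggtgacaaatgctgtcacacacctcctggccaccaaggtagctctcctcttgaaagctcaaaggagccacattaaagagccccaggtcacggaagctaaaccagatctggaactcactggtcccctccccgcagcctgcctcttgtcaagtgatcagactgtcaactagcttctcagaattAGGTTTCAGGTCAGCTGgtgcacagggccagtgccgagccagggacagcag
Ucp2, chr7:100493108-100493357: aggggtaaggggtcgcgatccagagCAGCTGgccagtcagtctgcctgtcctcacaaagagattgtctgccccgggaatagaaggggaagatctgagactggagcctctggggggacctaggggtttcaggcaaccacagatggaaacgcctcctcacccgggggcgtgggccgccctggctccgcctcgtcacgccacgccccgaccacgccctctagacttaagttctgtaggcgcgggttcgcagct
With negative positions counted back from the start site, the DR1-like repeat of Ucp3 runs from -51 to -39 and overlaps the E-box from -40 to -35. The Ucp2 run has an E-box from -225 to -220 and no DR1-like repeat.

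Promoters of 30 of the 35 genes were in the RefSeq table, each from 250 bases before to 50 bases after the start. Both strands were searched. The DR1 letters AGGTCANAGGTCA, with up to 2 mismatches, were found in 4 of 30 (13.3%) and in 4.40% of all 27025 genes with a promoter there. The 4 matches, shown because they are the whole set, have capitals where a base equals the motif or its free position.
Ucp3: AGGTttCAGGTCA
Etfa: AGGgCAAAGGTaA
Slc25a20: AGGTgAAAGGTCg
Echs1: AGGTCACgGGTCc
Of these genes only Slc25a20 was called, and only with Myod1. A single AGGTCA, which a perfect DR1 also holds, was in 6 of 30 promoters (20.0%) against 18.1% of all. The E-box CAGCTG was in 8 of 30 (26.7%) against 18.3%: Acsl1, Ucp2, Ucp3, Acsl3, Acsl4, Acot1, Acot2 and Cpt1a. Among these Acsl1 and Ucp2 were called higher with Myod1, beside 11 of the 32 genes compared and 14.0% of all genes. Ucp2 passed the filter only through that library, and Ucp3 was not compared. Acsl4, Acot1 and Acot2 lay above the control but under the limit, and Cpt1a (-0.38) and Acsl3 (-0.15) below it. A link between E-box and call was not tested. A match describes letters in a window and does not show binding.

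The wider pathway was read from 93 further genes in 8 sublists, of which 76 were compared. With Myod1 17 were higher and 6 lower, beside 14.0% and 7.55% of all genes. Without Acsl6, Ppara and Rxrg, which passed the filter only through this library, 14 of 73 were higher, against 10.2% of all genes filtered the same way. With Pparg 7 were higher and 1 lower, beside 4.22% and 2.30%, or 5 of 74 higher against 3.42% without the 2 that passed only through that library. With Setdb1 knockdown 9 were higher and 8 lower, near the 9.34% and 10.3% of all genes. Against both controls 17 higher and 0 lower were counted with Myod1 (11.9% and 4.42% of all genes), and 7 and 0 with Pparg (3.34% and 0.849%). Without the genes that passed only through the treated library, 14 of 73 were higher with Myod1, beside 991 of 12133 genes. With Pparg it was 5 of 74, beside 330 of 12611. With Setdb1 knockdown 5 were higher and 5 lower, near the 5.80% and 7.56% of all genes. The median log2 ratios of the 76 were 0.34, 0.22 and 0.08. The genes described as called are among those with the largest differences in each sublist that passed the limit against both controls, and Acadsb, Acad8, Acaca and Pdk3, which passed no limit with Myod1, were added for contrast with their values known.

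In the Myod1 library 2 acyl-CoA dehydrogenases of amino acid breakdown rose. Ivd, for leucine, was at 44.2 FPKM against 11.0 FPKM (log2 ratio 1.91), and Gcdh, for lysine and tryptophan, at 35.9 FPKM against 9.07 FPKM (1.87). Acadsb, for isoleucine, was not among them at 4.01 FPKM against 4.16 FPKM, nor was Acad8, for valine, at a ratio of 0.62. Malonyl-CoA inhibits carnitine palmitoyltransferase 1. Acacb, which makes it at mitochondria, was at 18.1 FPKM against 3.58 FPKM, and Mlycd, which removes it, at 32.5 FPKM against 5.53 FPKM. Acaca, which makes it in the cytosol, was at 5.54 FPKM against 9.86 FPKM, a ratio of -0.73 that passed no limit. Acss1, the mitochondrial acetyl-CoA synthetase, was at 7.19 FPKM against 0.830 FPKM, and Acsl6 at 3.57 FPKM against 0.105 FPKM. Of the peroxisomal genes Phyh rose (1.27), as did Acox2, from 0 reads to 2.08 FPKM. Acox2 also rose from 0 reads with Setdb1 knockdown, to 1.11 FPKM (76 reads, a ratio of 1.08). Among the regulators Esrra, a nuclear receptor of mitochondrial genes, was at 133 FPKM against 40.0 FPKM. Rxrg was at 2.55 FPKM against 0 reads.

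The pyruvate dehydrogenase kinases, which limit the entry of sugar carbon, differed in which form dominated. Pdk2 was at 49.5 FPKM with Myod1, 5.15 FPKM with Pparg, 1.51 FPKM in the expression control, 4.85 FPKM with Setdb1 knockdown and 1.23 FPKM in the knockdown control. It rose in all 3 comparisons, 32.8-fold, 3.41-fold and 3.95-fold. In the Myod1 library it made up 65.6% of the summed kinase level, and in the other 4 Pdk3 was the largest share at 57.1% to 85.7%. Pdk3 itself lay between 19.4 and 21.5 FPKM in all 5.

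With Pparg, Ech1, a dienoyl-CoA isomerase of peroxisomes and mitochondria, was at 101 FPKM against 39.0 FPKM (1.36), and Acaa1b, which passed the filter only through this library, at 1.68 FPKM against 0.0624 FPKM. Acsbg1, an acyl-CoA synthetase of the bubblegum family, was at 14.4 FPKM against 2.24 FPKM (2.24). Acad10 and Acad12, dehydrogenases with little-known substrates, had ratios of 1.06 and 1.19. Acad12 was also higher with Myod1, at 3.55 FPKM against 0.968 FPKM (1.21).

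With Setdb1 knockdown Mlycd was higher, at 13.3 FPKM against 3.77 FPKM (1.59). Abcd3, a peroxisomal fatty acid transporter, was lower at 7.10 FPKM against 16.9 FPKM (-1.14). The acetoacetyl-CoA thiolases Acat1 and Acat2 fell, from 44.5 to 17.8 FPKM and from 52.8 to 14.8 FPKM. Ppargc1a, a coactivator of oxidation genes, fell from 10.6 to 2.76 FPKM (-1.63), and the nuclear receptor Nr4a3 rose from 5.48 to 12.9 FPKM (1.10).

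**Figure D4:**
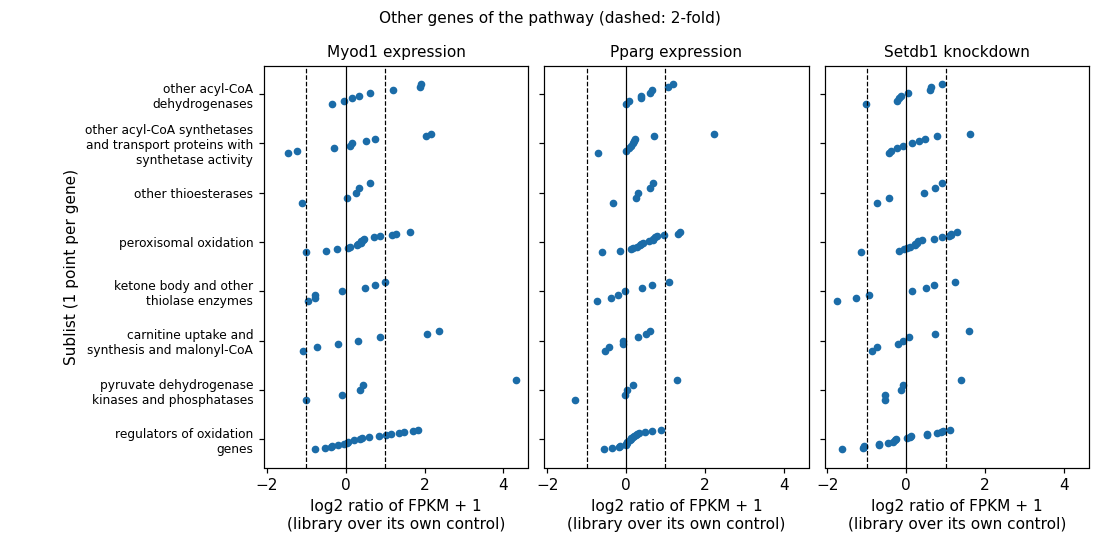
Log2 ratio of FPKM + 1 against each library's own control for the 76 further pathway genes, 1 point per gene, by sublist (vertical axis) in 3 panels; dashed lines mark 2-fold. The point at 4.33 in the Myod1 panel is Pdk2, and the Setdb1 panel has 9 points right of the lines and 8 left of them.

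The counting of several of the 35 genes is open to shared reads. In the annotation 11 overlap another protein-coding gene, 3 on the same strand and 8 on the opposite one, among them Crat, Acadvl, Hadha, Acsl5 and Ucp2. Whether counting used strand, and how it treated reads with more than 1 match, is not given in the sources used here. In 21 of the 35, no 50-base window was shared with another gene, and in 6 at least 10% were.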

How the data were processed

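RNA from B16F10 cells was sequenced in 5 libraries, 1 per group. The deposited file is a single table of the authors' FPKM values with gene symbols, positions and lengths. Per the submitters' processing notes, CASAVA, HISAT2 and featureCounts 1.5.0-p3 were used with GRCm38; strand handling and shared reads are not given in the sources used here. Multiplied by gene length, 100% of the deposited values were whole multiples of 1 step per library (tolerance 0.01), which gave back the reads. The authors' divisor equalled median-of-ratios size factors of these reads (ratio 1.00), so the deposited FPKM are already scaled between libraries.

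Log2 ratios with a pseudocount of 1, called at 2-fold, were taken for genes that reached 1 FPKM in some library, in Python 3.11.15 with pandas 2.3.3 and scipy 1.17.1. Folds are ratios of plain FPKM, taken against 3 reads where a control had at most 3. Wilson intervals are at 95%. The arithmetic was tested on simulated data. Of the identifiers shared with GENCODE M21, 98.3% had the same position there (31 of 35 of the oxidation genes), and shared 50-base windows were counted on its transcripts. The 35 genes are all named; further pathway genes were named by the largest differences past the limit against both controls, up to 2 per sublist, and some of these are not reported here. Genes and lists were chosen with earlier results of these data known. Protein identity between isozymes was not analysed here.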

Additional observations from a re-analysis of the deposited data

How the results depend on the processing

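Counts of called genes among the 32 moved with the scaling, the limit and the control. With Myod1 the 11 higher genes became 2 at a 4-fold limit (4.35% of all genes) and 4 with division by the column sum (9.64%). They became 6 with scaling to the 75th percentile (11.6%) and 6 with recovered reads scaled by library total (11.4%). The 0 lower genes became 2 (Acsl5 and Ehhadh) with a pseudocount of 0.1 (13.2% of all genes lower), the column sum (14.8%) and the 75th percentile (10.4%). The same 2 were lower with the other control (7.51%), a 3-read floor (13.2%) and library totals (10.0%). The median of 0.58 became 0.21, 0.41 and 0.41 under the column sum, the 75th percentile and library totals, and 0.79 with the other control. The medians of all genes were then -0.26, -0.11, -0.10 and 0.02, and higher calls made up 39.4%, 52.7% and 53.2% of all calls under the 3 scalings.

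With Pparg the higher count was 1 at 4-fold (0.709% of all genes), and 14 with the other control (5.52%) and with library totals (5.73%). It was 12 with a pseudocount of 0.1 (8.81%) and a 3-read floor (8.48%), and 8 against both controls (3.34%). The 1 lower gene, Acsl3, became 0 at 4-fold (0.179% of all genes lower), with the column sum (1.95%) and with library totals (1.77%). The lower count was also 0 with the other control (2.41%) and against both controls (0.849%). The median was 0.94 with the other control and 0.92 with library totals. With Setdb1 knockdown both counts were 0 at 4-fold, the higher count was 1 against both controls, the lower count was 4 with the other control, and the median there was 0.28. Cpt1c was at 0.99 with the 75th percentile. No value of a single gene that was called changed its sign. For the alternatives that moved a value, the cause was not tested, except that a 4-fold limit and a demand against both controls can only remove calls. Recovered reads scaled by library total, and an FPKM of at least 1 in both controls, were chosen after the data were seen. No paired analysis was possible because each group has 1 library, and for the same reason no replicate could be left out. Pdk4, Ucp2 and Ucp3 had 0 to 199 reads, and their values have wide counting intervals.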

Other observations

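Some further pathway genes differed between the controls, which bears on their treated values. Pdk1 was at 14.0 FPKM in the expression control and 2.34 FPKM in the knockdown control, and at 6.49 FPKM with Myod1, 5.12 FPKM with Pparg and 1.29 FPKM with Setdb1 knockdown. Slc27a1, a fatty acid transport protein, was at 18.8 FPKM and 5.59 FPKM in the 2 controls, and at 19.3 FPKM with Setdb1 knockdown, a log2 ratio of 1.62 against its own control and 0.04 against the other. Neither was called against both controls in any comparison. Ppara, the liver member of the PPAR receptors, had 74 reads with Myod1, 28 with Pparg and 5 or 6 in each of the other 3 libraries. Ppara was picked here with its values in view.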
